A study of Mus musculus with 8 samples.

Results

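Dbp, Tef, Hlf, Nfil3, Bhlhe40, Bhlhe41 and Rora are transcription factor genes that sit between the circadian clock and its targets, and 7 of 7 were found by symbol among the 22565 protein-coding genes of a liver RNA sequencing table. They were picked as the PAR bZip activators, the repressor that shares their DNA sites, and related factors, with values of the same comparison already in view, so their differences between groups are described here without a test. Of the 7 genes, 6 passed the filter used for all genes (0.5 FPKM or more in at least 4 of the 8 libraries), which 10221 genes passed. Bhlhe41 did not.

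Livers of 2 groups were compared. The 4 dexamethasone libraries came from male C57BL/6J mice, 10 weeks old, given dexamethasone, a synthetic glucocorticoid, at 1.0 mg/kg by intraperitoneal injection every day for 14 days. The 4 vehicle libraries came from mice of the same strain, sex and age given saline in the same way. No genetic change is named for either group, the hour of killing is not given in the sources used here, and nothing states that the samples of a group were prepared apart, so the spread between them may be partly technical. Levels are FPKM, fragment counts scaled for transcript length and library size, as deposited, given as mean ± SD over 4 libraries unless single values are listed.

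DBP, TEF and HLF are PAR bZip proteins, which bind D-box sites in DNA as dimers and switch on target genes. In liver their messenger RNAs rise and fall over the day under control of CLOCK and BMAL1, and mice that lack all of them have disturbed drug, bile acid and lipid metabolism. NFIL3 (E4BP4) binds the same sites and represses, usually in the opposite phase. BHLHE40 and BHLHE41 (DEC1 and DEC2) are repressors that compete with CLOCK and BMAL1 for E-box sites, and RORA is a nuclear receptor that activates genes through ROR elements, the sites at which NR1D1 and NR1D2 (REV-ERB alpha and beta) repress.

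The libraries differed in depth, which was lower on average with dexamethasone, though the groups overlapped. Inferred fragments on protein-coding genes numbered 1361295 to 2219957 in dexamethasone libraries and 2077512 to 3360083 in vehicle libraries, and the share of the deposited scaled counts on one gene, Lars2, was 28.4% to 51.1% with dexamethasone and 14.5% to 25.3% with vehicle (exact permutation test, two-sided, p = 0.029, the lower limit for groups of this size). The median log2 change of all genes was -0.28 in FPKM as deposited and -0.0038 after median-ratio scaling, so changes of the 6 genes are given both ways, the scaled one being the change relative to the median gene. The hepatocyte markers summed to 9639 to 17451 FPKM with dexamethasone and 16160 to 22724 FPKM with vehicle and all 10 reached 1 FPKM in at least 1 library. Inferred fragments outside Lars2 numbered 665937 to 1581775 with dexamethasone and 1636128 to 2571861 with vehicle, and these did not overlap. The part of depth and of the Lars2 share in the differences below was not tested.

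The promoter windows of Tef and Nfil3 are shown as examples that hold the clock motifs searched, an E-box (CACGTG) and the core of a ROR element (TAGGTCA or TGGGTCA). The Bhlhe41 window, which also held an E-box, is not printed. Sequences run 5' to 3' on the gene's strand, from 250 bases before to 50 after a start of the gene. They are from RefSeq on GRCm38.p6, whose table held 6 of the 7 genes in 7 windows (Bhlhe40 is named only). The Tef windows belong to different starts, the second of them inside the gene. Capitals mark the motif.
Tef, chr15:81802423-81802722, plus strand: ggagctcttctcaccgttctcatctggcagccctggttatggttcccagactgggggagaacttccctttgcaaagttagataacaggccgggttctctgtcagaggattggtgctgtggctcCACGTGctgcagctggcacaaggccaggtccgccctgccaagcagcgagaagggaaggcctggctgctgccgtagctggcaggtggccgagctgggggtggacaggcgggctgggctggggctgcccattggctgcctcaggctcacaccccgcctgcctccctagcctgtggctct
Tef, chr15:81811164-81811463, plus strand: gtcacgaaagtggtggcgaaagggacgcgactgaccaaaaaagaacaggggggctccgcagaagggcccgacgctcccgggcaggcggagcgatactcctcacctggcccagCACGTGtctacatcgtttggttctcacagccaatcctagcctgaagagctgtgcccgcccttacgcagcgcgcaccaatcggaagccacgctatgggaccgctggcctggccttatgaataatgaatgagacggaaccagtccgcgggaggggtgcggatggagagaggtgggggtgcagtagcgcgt
Nfil3, chr13:52980990-52981289, minus strand: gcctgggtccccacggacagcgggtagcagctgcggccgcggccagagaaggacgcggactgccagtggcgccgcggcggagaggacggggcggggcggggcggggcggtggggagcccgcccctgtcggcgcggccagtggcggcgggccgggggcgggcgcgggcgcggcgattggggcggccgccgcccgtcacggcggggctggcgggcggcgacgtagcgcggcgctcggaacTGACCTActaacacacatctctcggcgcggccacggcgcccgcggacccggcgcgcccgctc
Both Tef windows held an E-box, at positions -127 and -138 from the start that each window was built on. So did that of Bhlhe41, at -153. An E-box lay in 7.15% of all 32851 windows of this length. The ROR core in the Nfil3 window read TGACCTA on the printed strand, at -12. This core, TAGGTCA or TGGGTCA on either strand, lay in 6.45% of windows. Hlf held a cyclic AMP element (TGACGTCA, in 1.79% of windows), at -9. A D-box (TTANGTAA, in 2.32%) and a full glucocorticoid element (in 0.475%) were searched on both strands too, and the letters of neither were in the 7 windows. AGAACA, one arm of the glucocorticoid element, was in the second Tef window, at -209, and in 18.97% of all windows. The windows of Dbp and Rora held none of the motifs searched. A match describes letters, not binding, and a window without one shows nothing about distant sites.

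Of the activators, Dbp and Tef were lower in every dexamethasone library than in every vehicle library, and the repressor Nfil3 was higher in every one. For the other 3 genes that passed the filter, Hlf, Bhlhe40 and Rora, the groups overlapped. Over all genes tested, 16.2% had lower and 2.18% had higher non-overlapping FPKM with dexamethasone (18.4% in either direction), and 7.11% were lower and 7.31% higher after median-ratio scaling (14.4% in either direction). The members were chosen on these values, so nothing is read from their count against these shares. After scaling the same 3 genes were separated.

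**Figure D1:**
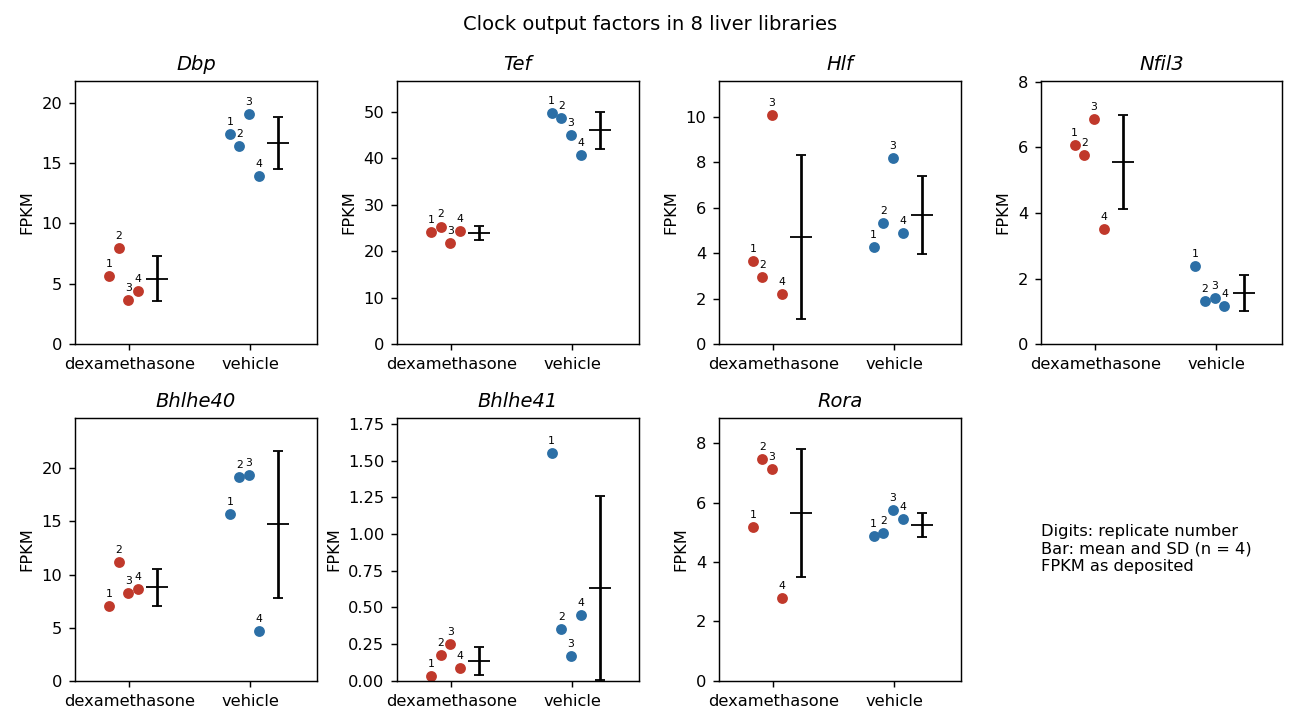
FPKM as deposited (vertical axes, each from 0) of the 7 genes in the 4 dexamethasone libraries (red, left) and the 4 vehicle libraries (blue, right), with replicate numbers beside points and bars for mean and SD. Dbp and Tef points with dexamethasone all lie below those with vehicle, Nfil3 points all lie above, and the other 4 genes overlap.

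Dbp (ENSMUSG00000059824, chromosome 7, 45705088 to 45710203, plus strand in GRCm38, GENCODE M21, as for the positions below) encodes the activator named for its binding to the D-box of the albumin promoter. It had 5.63, 7.96, 3.70 and 4.38 FPKM in dexamethasone libraries 1 to 4, against 17.4, 16.4, 19.0 and 13.9 FPKM in vehicle libraries 1 to 4. The highest dexamethasone library was below the lowest vehicle library by a wide margin. The log2 change was -1.50 ± 0.23 (SE) as deposited and -1.13 ± 0.18 after scaling, and the mean was 3.08-fold lower as deposited. From the scaled counts after median-ratio scaling the log2 change was -1.50 ± 0.23. Of the 10221 genes tested, 99 had a more negative change. Dbp was chosen with this comparison in view, so nothing is read from that place. The values rest on few fragments, 46, 71, 23 and 16 inferred fragments with dexamethasone against 166, 134, 237 and 123 with vehicle.

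Dbp overlaps the opposite-strand gene Sphk2, a sphingosine kinase gene, over 737 bases. The libraries keep strand, but whether counting used it is not given in the sources used here, so reads in that stretch could belong to either gene. The same holds for Tef and Gm17597 (193 bases), Bhlhe40 and 0610040F04Rik (306 bases), Bhlhe41 and Gm43909 (1876 bases) and Rora and Gm15511 (15359 bases), while Hlf and Nfil3 overlap no annotated gene. Sphk2 itself had 5.04 ± 0.993 FPKM with dexamethasone and 7.41 ± 0.606 FPKM with vehicle (SD, n = 4; log2 change -0.49 ± 0.20, limma adjusted p = 0.14, and -0.13 after scaling). The loci deposited with the values were wider than the GENCODE spans for Dbp (15.75 kb against 5.12 kb) and Tef (26.07 kb against 24.44 kb). They were also wider for Bhlhe40 (89.89 kb against 6.3 kb) and Bhlhe41 (600.09 kb against 7.32 kb). Whether reads elsewhere in these loci were counted is not given in the sources used here.

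Tef (ENSMUSG00000022389, chromosome 15, 81802421 to 81826863, plus strand), the most abundant of the 7, had 24.1, 25.3, 21.9 and 24.4 FPKM in dexamethasone libraries 1 to 4, against 49.8, 48.6, 45.0 and 40.8 FPKM in vehicle libraries 1 to 4. Both groups were tight and far apart. The log2 change was -0.91 ± 0.18 as deposited and -0.51 ± 0.16 after scaling. From the scaled counts after median-ratio scaling it was -0.42 ± 0.14. After scaling dexamethasone 4 stood at 35.9 FPKM, next to the vehicle libraries (37.6 to 40.7 FPKM), whereas dexamethasone 1 to 3 stood at 24.3 to 25.4 FPKM.

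Hlf (ENSMUSG00000003949, chromosome 11, 90336536 to 90390895, minus strand), the remaining PAR bZip gene, had 3.66, 2.95, 10.1 and 2.19 FPKM in dexamethasone libraries 1 to 4, against 4.28, 5.32, 8.17 and 4.90 FPKM in vehicle libraries 1 to 4. Dexamethasone 3 was above all vehicle libraries and the other 3 dexamethasone libraries were below all of them. In the scaled counts, which carry no length, Hlf had 58.3, 47.0, 62.0 and 53.7 with dexamethasone against 72.9, 110.9, 120.1 and 87.5 with vehicle, and the groups did not overlap (nor did those of 21.8% of genes tested, 20.2% lower and 1.62% higher). They overlapped once these counts were scaled by the median ratio. The log2 change was -0.37 ± 0.34 from FPKM, -0.04 ± 0.34 from scaled FPKM and -0.33 ± 0.22 from the counts after median-ratio scaling. Hlf FPKM per scaled count ran from 0.0409 to 0.163 with dexamethasone and from 0.0480 to 0.0680 with vehicle, so the 2 kinds of deposited value did not move together for this gene. The same quotient also varied for Dbp, from 0.105 to 0.199 with dexamethasone and 0.0965 to 0.127 with vehicle. For Bhlhe40 it ran from 0.0713 to 0.146 with dexamethasone and 0.0620 to 0.121 with vehicle. For Tef it ran from 0.0661 to 0.0944 with dexamethasone and 0.0747 to 0.0870 with vehicle. For Nfil3 it ran from 0.0796 to 0.102 with dexamethasone and 0.0782 to 0.0873 with vehicle. GENCODE M21 lists 6 transcripts of Hlf, 5 of Dbp, 10 of Tef and 1 of Nfil3. Why the quotient varied was not tested.

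Dbp, Tef and Hlf together summed to 33.4, 36.2, 35.7 and 31.0 FPKM in dexamethasone libraries 1 to 4, against 71.5, 70.4, 72.2 and 59.5 FPKM in vehicle libraries 1 to 4. Tef made up 70.6 ± 7.19% of this sum with dexamethasone and 67.4 ± 3.41% with vehicle, and Dbp 15.8 ± 4.87% with dexamethasone and 24.4 ± 1.44% with vehicle (SD, n = 4). Tef was thus most of the PAR bZip messenger RNA in both groups, per length.

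Nfil3 (ENSMUSG00000056749, chromosome 13, 52967209 to 52981073, minus strand), the D-box repressor, had 6.09, 5.78, 6.86 and 3.52 FPKM in dexamethasone libraries 1 to 4, against 2.38, 1.31, 1.42 and 1.18 FPKM in vehicle libraries 1 to 4. The lowest dexamethasone library, number 4, was above the highest vehicle library, number 1. The log2 change was 1.34 ± 0.24 as deposited, 1.63 ± 0.19 after scaling and 2.15 ± 0.26 from the scaled counts after median-ratio scaling, with a mean FPKM 3.54-fold higher. A pseudocount of 1 holds down the FPKM-based change of a gene near 1 FPKM. Inferred fragments were 74, 68, 71 and 25 with dexamethasone and 28, 16, 24 and 14 with vehicle. Of the genes tested, 63 had a larger positive change. Nfil3 was chosen with this comparison in view, so nothing is read from that place.

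**Figure D2:**
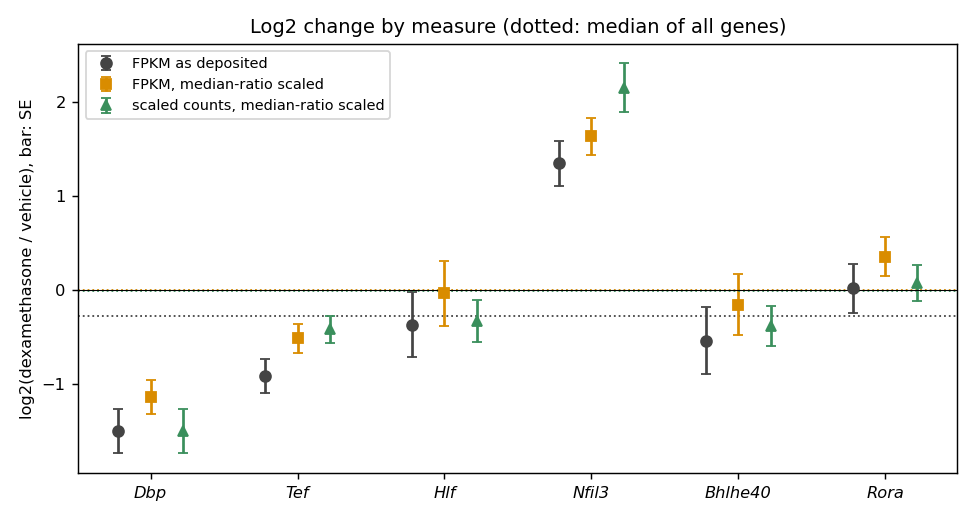
Log2 change of dexamethasone over vehicle (vertical axis) for the 6 genes that passed the filter, from FPKM as deposited, FPKM after median-ratio scaling and scaled counts after median-ratio scaling, with SE bars and dotted lines at the median of all genes. Dbp and Tef stay below 0 and Nfil3 above 0 in all 3 measures, and Rora lies between 0.02 and 0.36.

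A ratio of 2 genes within a library is free of any factor that scales the whole library. Dbp over Nfil3 was 0.926, 1.38, 0.540 and 1.24 in dexamethasone libraries 1 to 4, against 7.32, 12.6, 13.4 and 11.8 in vehicle libraries 1 to 4, taken on FPKM. Dbp and Nfil3 were thus at about the same FPKM with dexamethasone, and Dbp was well above Nfil3 with vehicle. In scaled counts Dbp over Nfil3 was 0.622, 1.04, 0.324 and 0.640 with dexamethasone, against 5.93, 8.38, 9.88 and 8.79 with vehicle. There Nfil3 was above Dbp in every dexamethasone library but number 2. On FPKM, Tef over Nfil3 averaged 4.62 ± 1.63 with dexamethasone and 31.1 ± 7.20 with vehicle (SD, n = 4), and the groups did not overlap. Within the activators Tef over Dbp was 4.28, 3.18, 5.92 and 5.58 with dexamethasone, against 2.85, 2.96, 2.36 and 2.93 with vehicle, and every dexamethasone library was above every vehicle library. These ratios were formed from genes chosen on the same values and carry no test.

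**Figure D3:**
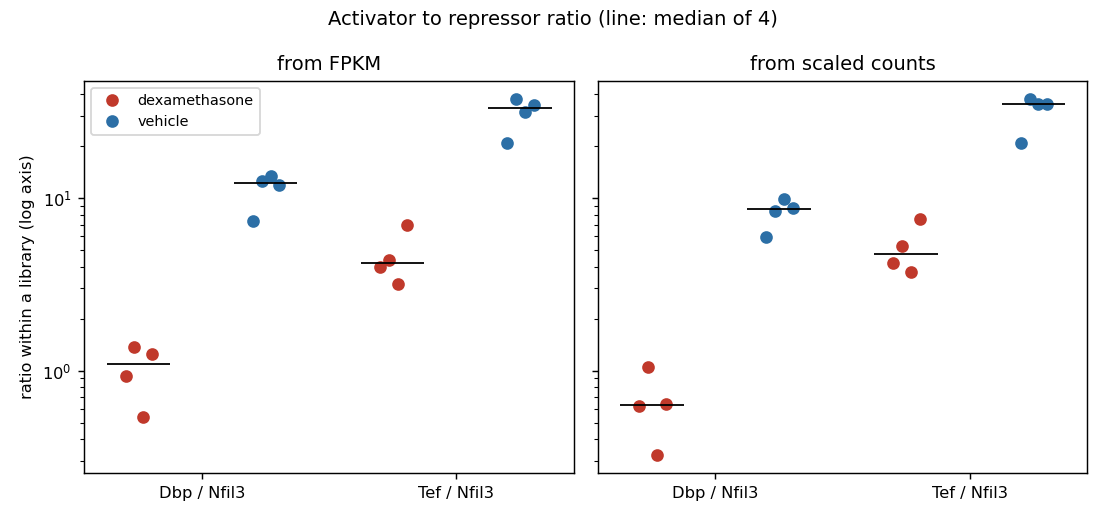
Ratio of Dbp or Tef to Nfil3 within each library (log axis), from FPKM (left panel) and from scaled counts (right panel), for dexamethasone libraries (red) and vehicle libraries (blue), with a line at the median of 4. Every dexamethasone point lies below every vehicle point in both panels, at Dbp over Nfil3 of 0.540 to 1.38 against 7.32 to 13.4 on FPKM.

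Bhlhe40 (ENSMUSG00000030103, chromosome 6, 108660629 to 108666925, plus strand), the more abundant of the 2 E-box repressors, had 7.02, 11.2, 8.28 and 8.66 FPKM in dexamethasone libraries 1 to 4, against 15.7, 19.2, 19.4 and 4.65 FPKM in vehicle libraries 1 to 4. Vehicle 4 was below all dexamethasone libraries, and the other 3 vehicle libraries were above all of them. The log2 change was -0.54 ± 0.36 as deposited and -0.15 ± 0.32 after scaling, and -0.97 as deposited without vehicle 4. In scaled counts vehicle 4 had 75.0, inside the dexamethasone range of 59.2 to 103.5, and vehicle 1 to 3 had 158.1 to 202.0.

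Bhlhe41 (ENSMUSG00000030256, chromosome 6, 145858243 to 145865558, minus strand), its close relative, was near the floor of the assay. It had 0.0331, 0.177, 0.25 and 0.0848 FPKM with dexamethasone, against 1.55, 0.354, 0.170 and 0.451 FPKM with vehicle. Only vehicle 1 was above 0.5 FPKM, so the gene was not tested, and 15 inferred fragments in all dexamethasone libraries stood against 50 in all vehicle libraries. The groups overlapped.

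Rora (ENSMUSG00000032238, chromosome 9, 68653786 to 69388246, plus strand), the ROR element activator, had 5.18, 7.46, 7.14 and 2.79 FPKM in dexamethasone libraries 1 to 4, against 4.86, 4.99, 5.74 and 5.43 FPKM in vehicle libraries 1 to 4. The dexamethasone libraries lay on both sides of the vehicle libraries. The log2 change was 0.02 ± 0.26 as deposited and 0.36 ± 0.21 after scaling, and it was -0.12 without dexamethasone 2 and -0.10 without dexamethasone 3. No direction is given for Rora.

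By mean FPKM with dexamethasone the order was Tef (24.0 ± 1.46), Bhlhe40 (8.79 ± 1.75), Rora (5.64 ± 2.15), Nfil3 (5.56 ± 1.43), Dbp (5.42 ± 1.87), Hlf (4.72 ± 3.62) and Bhlhe41 (0.136 ± 0.0962). The 4 neighbours from Rora to Hlf differed by less than their SD. With vehicle it was Tef (46.0 ± 4.08), Dbp (16.7 ± 2.16), Bhlhe40 (14.7 ± 6.92), Hlf (5.67 ± 1.72), Rora (5.25 ± 0.406), Nfil3 (1.57 ± 0.551) and Bhlhe41 (0.632 ± 0.624). There Dbp and Bhlhe40 were within their SD of each other, and Hlf and Rora overlapped in their values.

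For each member that passed the filter, the 3 genes of highest Pearson r with it over the 8 libraries were taken from 8341 candidates, on scaled log2 FPKM with the mean of each group removed. Only 3 of the 18 genes were also among the 3 highest by Spearman's rho, so the choice depends on the measure. This r is a description over libraries that share depth and composition. The leading gene was Tmem161a for Dbp (r = 0.96), Srp68 for Tef (r = 0.99), Dennd4a for Hlf (r = 0.96), Derl1 for Nfil3 (r = 0.97), Galnt2 for Bhlhe40 (r = 0.97) and Ero1lb for Rora (r = 0.99). The next genes were Sgk2 and Tspan31 for Dbp, Serpina3m and Caskin2 for Tef, Rassf8 and Chid1 for Hlf, Yif1b and Plxnc1 for Nfil3, Abhd17a and Lemd2 for Bhlhe40, and Fxyd1 and Lman2l for Rora (r from 0.94 to 0.99 over all 18). Among the 15 pairs of members, r within groups ran from -0.73 for Tef and Rora to 0.60 for Hlf and Rora. Among the activators r was 0.17 for Dbp and Tef, -0.72 for Dbp and Hlf and -0.36 for Tef and Hlf. Dbp and Nfil3 had r = -0.53. After scaling, Hlf had 11.3 FPKM in dexamethasone 3, against 2.82 to 3.85 FPKM in the other dexamethasone libraries. Tef had 35.9 FPKM in dexamethasone 4, against 24.3 to 25.4 FPKM in the others. Bhlhe40 had 4.65 FPKM in vehicle 4, against 12.7 to 16.2 FPKM in the others. An r with these genes can thus rest largely on a single library, and no common course is read from it.

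Of the core clock, 1 of 15 tested genes rose and 3 fell with dexamethasone (limma, Benjamini-Hochberg adjusted p under 0.05), where 1.37% of all genes rose and 7.85% fell (9.22% in either direction). The list's median log2 change was -0.17, against -0.28 over all genes. After median-ratio scaling 3 rose and 1 fell, with a median of 0.16 against -0.0038, where 3.3% of all genes rose and 3.03% fell (6.33% in either direction). Per3, a period gene, fell both ways, with 3.36 ± 0.816 FPKM in dexamethasone livers and 10.5 ± 1.21 FPKM in vehicle livers (SD, n = 4; log2 change -1.42 ± 0.21, limma adjusted p = 0.0014, and 0.016 after scaling). Arntl, which encodes BMAL1, rose both ways (0.79 ± 0.17, limma adjusted p = 0.014, and 0.010 after scaling), with 0.611, 0.928, 0.987 and 1.02 FPKM in dexamethasone libraries 1 to 4, whereas it was listed at 0, 0.328, 0 and 0.0554 FPKM in vehicle libraries 1 to 4. Arntl reached the 0.5 FPKM of the filter only in dexamethasone libraries, so it was tested only through the group in which it was high. Its p is therefore not read as support, and neither is its place in the counts of this list. The size of its log2 change depends on the pseudocount and measure. It was 2.60 at a pseudocount of 0.1, 3.09 in scaled counts as deposited and 3.37 in scaled counts after median-ratio scaling.

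Of the genes that act at ROR elements, the repressor gene Nr1d2 fell as deposited (-0.86 ± 0.20, limma adjusted p = 0.020), and the call did not hold after scaling (adjusted p = 0.15). The Nr1d2 call was also lost without vehicle 1, 2 or 3 (adjusted p = 0.053, 0.070 and 0.066) and without dexamethasone 3 (adjusted p = 0.05). Nr1d1 had 3.21 ± 1.66 FPKM with dexamethasone and 7.26 ± 2.30 FPKM with vehicle (SD, n = 4) and missed the threshold (-1.0 ± 0.30, limma adjusted p = 0.0501, and 0.12 after scaling). Clock, the partner of BMAL1, rose after scaling (0.83, limma adjusted p = 0.025) but not as deposited (0.56 ± 0.24, adjusted p = 0.16), and so did Gm129, the older symbol of the repressor gene Ciart (1.13, limma adjusted p = 0.032, and 0.13 as deposited). Per1 (0.07 ± 0.29, limma adjusted p = 0.90), Per2 (-0.17 ± 0.22, adjusted p = 0.63) and Cry1 (0.20 ± 0.20, adjusted p = 0.55) did not pass either way, and the sign of Per2 turned with scaling. Npas2 and Rorb did not reach the filter.

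**Figure D4:**
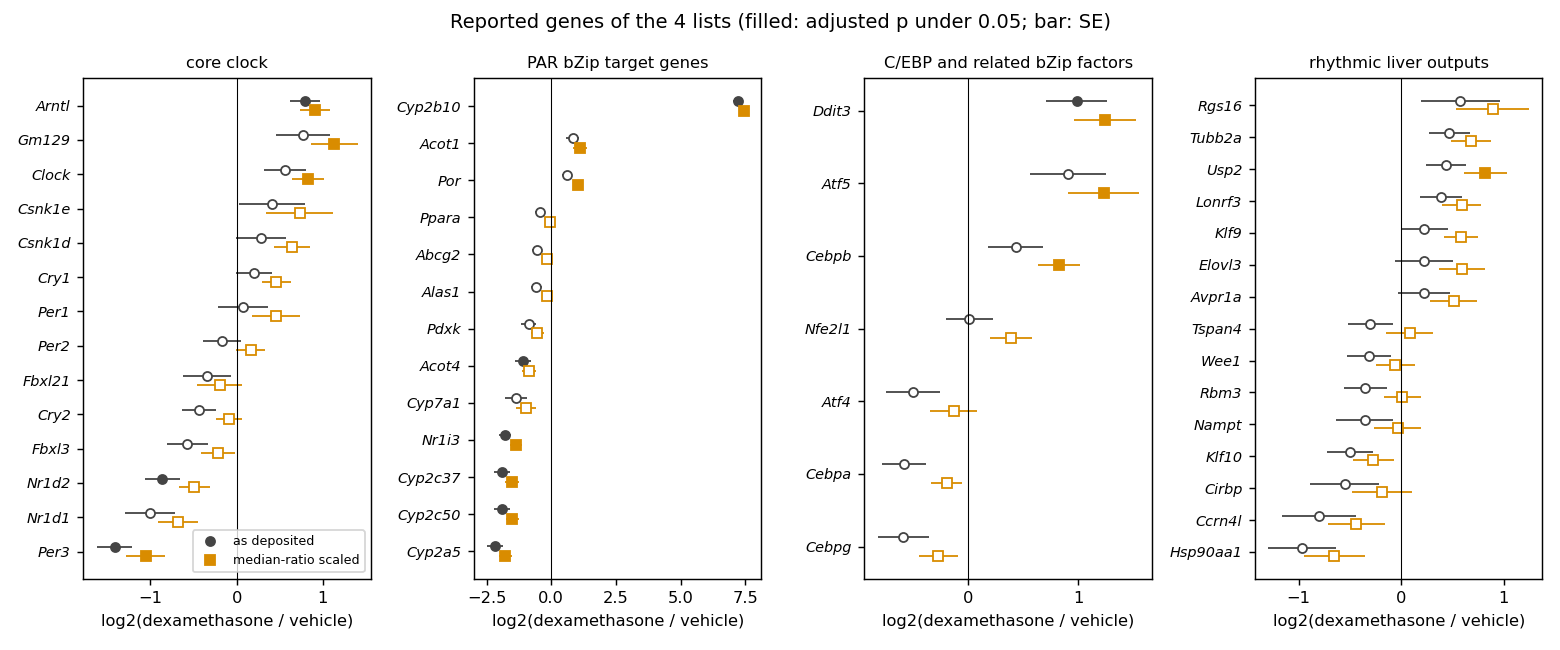
Log2 change of dexamethasone over vehicle (horizontal axes) for the tested genes reported here of 4 lists, from FPKM as deposited (grey circles) and after median-ratio scaling (orange squares), filled where the limma adjusted p was under 0.05, with SE bars. Per3, Arntl, Cyp2b10, Nr1i3, Cyp2a5, Cyp2c37, Cyp2c50 and Ddit3 are filled in both.

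Of 13 tested genes that have been described as targets of PAR bZip factors, 1 rose and 5 fell as deposited, where 1.37% of all genes rose and 7.85% fell, and the median log2 change was -0.87, against -0.28 over all genes. After scaling 3 rose and 4 fell, where 3.3% of all genes rose and 3.03% fell, with a median of -0.54 against -0.0038. Nr1i3, which encodes the xenobiotic receptor CAR, fell to 31.0 ± 6.35 FPKM in dexamethasone livers, against 109.4 ± 27.0 FPKM in vehicle livers (SD, n = 4; log2 change -1.78 ± 0.22, limma adjusted p = 6.0e-04, and 0.0057 after scaling). The cytochrome P450 genes Cyp2a5 (-2.18 ± 0.31, limma adjusted p = 0.0011), Cyp2c37 (-1.91 ± 0.32, adjusted p = 0.0033) and Cyp2c50 (-1.91 ± 0.32, adjusted p = 0.0033) fell both ways. Acot4, an acyl-CoA thioesterase gene, fell as deposited (-1.11 ± 0.30, limma adjusted p = 0.039, and 0.085 after scaling), and its relative Acot1 rose after scaling (1.12, adjusted p = 0.031, and 0.056 as deposited). Cyp2c37, Cyp2c50, Acot4, Acot1 and Gm129 are outside the naming rule and were added after their values were seen. Cyp2 and Acot genes have close relatives among which the authors' counting could split reads. Cyp2b10, a further P450 and also a target of CAR, went the other way and rose both ways (7.21 ± 0.20, limma adjusted p = 1.8e-10). It had 219 ± 38.2 FPKM with dexamethasone, against 0.475 ± 0.140 FPKM with vehicle. In vehicle libraries 1 to 4 it had 0.579, 0.310, 0.603 and 0.408 FPKM, so it passed the filter only through the dexamethasone libraries. The p of Cyp2b10 is therefore not read as support, and neither is its place in the counts of this list. Por, the electron donor of the P450 enzymes, had 194 ± 24.9 FPKM with dexamethasone and 128 ± 22.8 FPKM with vehicle and rose only after scaling (0.61 ± 0.20, limma adjusted p = 0.072, and 0.0028 after scaling).

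Others on that list did not pass as deposited. Alas1, the first enzyme of haem synthesis, had a log2 change of -0.57 ± 0.22 (limma adjusted p = 0.11), and Ppara, the fatty acid receptor gene, -0.44 ± 0.19 (adjusted p = 0.15). Pdxk, the pyridoxal kinase gene, had -0.87 ± 0.29 (limma adjusted p = 0.081). Cyp7a1, the rate-limiting enzyme of bile acid synthesis and a long-known DBP target, had 48.9, 14.6, 13.3 and 9.04 FPKM in dexamethasone libraries 1 to 4, against 65.3, 54.1, 48.4 and 26.7 FPKM in vehicle libraries 1 to 4. Dexamethasone 1 lay among the vehicle libraries and the other 3 lay below all of them (-1.37 ± 0.42, limma adjusted p = 0.059).

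The C/EBP proteins and related bZip factors bind sites that overlap in sequence with D-boxes. Of 7 tested, 1 rose and 0 fell as deposited by limma (2 higher and 2 lower at an unadjusted p under 0.05), where 1.37% of all genes rose and 7.85% fell, and the median log2 change was 0.01, against -0.28 over all genes. After scaling 3 rose and 0 fell by limma (3 and 0 at an unadjusted p under 0.05), where 3.3% of all genes rose and 3.03% fell, with a median of 0.39 against -0.0038. Over all genes tested, an unadjusted limma p under 0.05 was reached by 2799 of 10221 as deposited and 2064 after scaling, in either direction. Ddit3, the stress-induced CHOP gene, rose (0.99 ± 0.28, limma adjusted p = 0.045, and 0.024 after scaling), a call as deposited that was lost in 6 of the 8 fits that left out 1 library. Cebpb (0.43 ± 0.25, limma adjusted p = 0.28) and Atf5 (0.91 ± 0.35, adjusted p = 0.12) rose only after scaling (0.027 and 0.045), and Cebpa did not pass (-0.59 ± 0.20, adjusted p = 0.078). Cebpd is not analysed here.

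Among 15 genes with a daily rhythm in liver, 0 rose and 0 fell as deposited by limma, where 9.22% of all genes did either, and the median log2 change was -0.30, against -0.28 over all genes. At an unadjusted limma p under 0.05 these were 2 higher and 3 lower of the 15, and 2799 of the 10221 genes tested in either direction. After scaling 1 rose and 0 fell, where 6.33% of all genes did either, with a median of 0.08 against -0.0038. The 1 was the ubiquitin protease gene Usp2 (0.82, limma adjusted p = 0.039, and 0.16 as deposited). Wee1, a cell cycle kinase gene (-0.31 ± 0.21, limma adjusted p = 0.36), Tubb2a (0.47 ± 0.20, adjusted p = 0.15) and Hsp90aa1 (-0.97 ± 0.33, adjusted p = 0.083) did not pass.

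In bulk liver fewer cells of a type and less RNA per cell cannot be told apart. Lymphocytes, in which Nfil3 and Rora also act, gave 10 markers that all stayed under 1 FPKM in every library, and these summed to 0 to 0.305 FPKM with dexamethasone and 0.898 to 2.12 FPKM with vehicle (exact permutation p = 0.029, adjusted 0.26 over 9 lists). Kupffer cell markers summed to 29.8 to 38.4 FPKM with dexamethasone and 28.1 to 57.4 FPKM with vehicle, sinusoidal endothelial markers to 49.5 to 81.9 FPKM with dexamethasone and 59.1 to 77.1 FPKM with vehicle, and cholangiocyte markers to 12.8 to 30.7 FPKM with dexamethasone and 19.3 to 57.9 FPKM with vehicle. Stellate cell markers summed to 55.2 to 89.0 FPKM with dexamethasone and 73.5 to 81.7 FPKM with vehicle. Erythroid markers summed to 29.5 to 68.7 FPKM with dexamethasone and 23.4 to 44.8 FPKM with vehicle, and 3 of 6 neutrophil and 7 of 9 pancreatic acinar markers were listed at 0 in all libraries. After median-ratio scaling the endothelial sums were 67.3 to 81.7 FPKM with dexamethasone and 49.9 to 64.5 FPKM with vehicle and did not overlap (exact permutation p = 0.029, adjusted 0.13). Scaled stellate sums were 73.3 to 95.7 FPKM with dexamethasone and 61.6 to 73.5 FPKM with vehicle, and scaled erythroid sums 33.1 to 65.8 FPKM with dexamethasone and 18.3 to 36.3 FPKM with vehicle (exact permutation p = 0.057 for each, adjusted 0.13). No list's adjusted p was under 0.05, as deposited or scaled. The part of these cells in the levels above was not tested.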

How the data were processed

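Ribosomal RNA was removed before stranded library construction, per the labels' protocols. The submitters' processing notes name CASAVA 1.8, TopHat2 and the human build hg19, yet gene identifiers and loci are murine, and 21840 of 22565 were found in GENCODE M21 (GRCm38). The quantifying tool is not given in the sources used here. Per the file headers, 8 columns hold the authors' FPKM. The authors' other 8 columns, headed counts, hold a deposited signal: below 500 units, 93.2% to 95.4% of a library's values were whole (within 0.01) once divided by a fixed unit. They were taken as scaled fragment counts, and inferred fragments are value over unit. Their sums cover protein-coding genes, not the whole library.

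limma 3.58.1 under R 4.3.3 (eBayes with trend) was fitted to log2(FPKM + 1) with treatment alone, for genes reaching 0.5 FPKM in 4 libraries. A pseudocount of this size shrinks changes of low genes. P-values were two-sided and Benjamini-Hochberg adjusted over all 10221 genes (threshold 0.05). Median-ratio scaling used genes above 0 in all libraries. The fit was tested on simulated data. Members and gene lists were chosen with earlier results of these data known. Named genes were the members, the 3 of smallest p per list, and a further set of clock, target and C/EBP genes whatever their values. A core clock gene that enters the counts of its list is not reported here by name. Replicate numbers did not pair the libraries (r of same-numbered libraries -0.015 to 0.021). Marker sums and the Lars2 share were compared by exact permutation tests. Alternatives covered pseudocount, filter, scaling, the count columns, robust fitting, a replicate block and each library left out. Python 3.11.15, scipy 1.17.1 and matplotlib 3.10.9 did the rest.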

Additional observations from a re-analysis of the deposited data

Results flagged for a closer look

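In 6 of the 84 groups of 4 libraries examined, 1 library stood apart from the other 3 by Dixon's 95% critical value for the gap to its nearest neighbour over the range, and chance alone gives about 1 in 20 groups. None of the 7 clock output factors was among them. Cyp7a1 in dexamethasone 1 had 48.9 FPKM, against 9.04 to 14.6 FPKM in the other dexamethasone libraries (gap over range 0.86). Cebpb in dexamethasone 4 had 17.5 FPKM, against 26.8 to 28.2 FPKM in the others (0.87). Hepatocyte markers in dexamethasone 4 summed to 9639 FPKM, against 16774 to 17451 FPKM (0.913), and this library also had the fewest inferred fragments. Arntl in vehicle 2 had 0.328 FPKM, against 0 to 0.0554 FPKM (0.831). Cyp2a5 in vehicle 1 had 197.9 FPKM, against 88.0 to 105.5 FPKM (0.841), and the share of scaled counts on Lars2 in that library was 14.5%, against 23.5% to 25.3% in the other vehicle libraries (0.8293).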

How the results depend on the processing

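Dbp and Tef stayed lower and Nfil3 higher with dexamethasone under every alternative run. The size moved with scaling: Tef was -0.91 as deposited, -0.51 with median-ratio scaling and -0.42 in scaled counts so scaled. Of 120 values of the 6 tested members, 100 moved by less than 1 SD, 15 by more with the same sign, and 5 changed sign: Hlf was 0.10 with median-ratio scaling and without dexamethasone 4, and Rora was -0.39 in scaled counts as deposited, -0.12 and -0.10 without dexamethasone 2 or 3, and -0.01 without vehicle 1. Leaving out 1 library gave log2 changes of -1.67 to -1.36 for Dbp, -0.97 to -0.87 for Tef, -0.75 to -0.15 for Hlf, 1.25 to 1.51 for Nfil3, -0.97 to -0.36 for Bhlhe40 and -0.12 to 0.27 for Rora. The groups stayed apart for Dbp, Tef and Nfil3 when 1 library was left out. Bhlhe40 was also lower in every dexamethasone library than in every vehicle library without vehicle 4, and Hlf without dexamethasone 3. Rora was higher in every one with scaling and without dexamethasone 4. The share of all genes that separate with 1 library fewer was not computed, so nothing is read from these separations. Per1 ranged from -0.22 without vehicle 4 to 0.27 without vehicle 3, was -0.01 without dexamethasone 4 and was -0.018 in scaled counts as deposited. Per2 was 0.16 with median-ratio scaling, with or without the replicate block and in scaled counts, 0.13 with quantile normalization and 0.12 with scaling and without dexamethasone 4.

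Over all genes, 140 were higher and 802 lower as deposited. Median-ratio scaling gave 337 higher and 310 lower, and without dexamethasone 4 also 311 and 289. Quantile normalization gave 335 higher and 335 lower. No filter gave 487 lower, scaled counts as deposited 1473 lower, and scaled counts with median-ratio scaling 539 higher. Leaving out 1 library gave 107 to 170 higher and 367 to 866 lower, with 367, 404, 423 and 459 lower without vehicle 2, 3 or 1 or dexamethasone 3. The replicate block, whose numbers do not pair the libraries, gave 159 higher and 956 lower, and with median-ratio scaling 243 and 192.

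Core clock genes higher numbered 0 at a filter of 1 FPKM, 3 with median-ratio scaling, quantile normalization or scaled counts so scaled, 4 without dexamethasone 4 as well, and 2 with the block and scaling or in scaled counts as deposited. Those lower numbered 1 with median-ratio scaling, with or without the block, or quantile normalization. PAR bZip targets higher numbered 3 with either scaling or scaled counts so scaled, and 2 without dexamethasone 4 as well or with the block and scaling, and 8 were lower in scaled counts as deposited. C/EBP factors higher numbered 0 with no filter, a pseudocount of 0.1 or scaled counts as deposited, 3 with median-ratio scaling of either measure, and 2 with quantile normalization or without dexamethasone 4 as well. The block gave 1 lower there and 1 among rhythmic outputs, where scaled counts as deposited gave 2. Rhythmic outputs higher numbered 1 with either scaling, 2 in scaled counts so scaled and 3 without dexamethasone 4 as well. Leaving out 1 library gave 1 higher and 2 to 4 lower core clock genes, 1 to 2 and 4 to 6 targets, 0 to 1 and 0 C/EBP factors, and 0 and 0 rhythmic outputs.

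Of 498 values of 25 other named genes, 434 kept sign and side of the threshold, 20 in 3 genes lost it, 36 in 11 genes gained it and 8 in Per1 and Per2 changed sign. Marker sums, dexamethasone minus vehicle, changed sign with scaling in hepatocyte (946 FPKM), Kupffer (1.70 FPKM) and stellate (16.7 FPKM) lists. The causes were not tested. The edgeR and DESeq2 alternatives were not run, since whole reads could not be recovered for all genes. Inferred fragments were few for Bhlhe41 (15 with dexamethasone and 50 with vehicle in all), for Dbp in dexamethasone 3 and 4 (23 and 16) and for Nfil3 with vehicle (14 to 28).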
